A study of Mus musculus with 6 samples.

Results

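The genes described here are the numbered integrin alpha and beta chains together with Itgav, and the numbered cadherins, taken from the deposited counts by name. Of 48440 genes in the table, 43 carried such a name (20 integrins and 23 cadherins), and 32 of them (18 integrins and 14 cadherins) had a total of 30 or more reads over the 6 libraries. Integrins are cell surface receptors made of an alpha and a beta chain, and the pairing of the chains sets which matrix protein or cell surface ligand is bound. Inside the cell, talin and kindlin bind the beta chain and link it to actin. Classical cadherins hold neighbouring cells together through calcium-dependent contacts between their extracellular domains, while their tails bind catenins. Pluripotent mouse cells grow in compact colonies held by E-cadherin (Cdh1), and N-cadherin (Cdh2) is known to be gained when epiblast cells pass through the primitive streak.

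Polyadenylated RNA was sequenced from 6 clones of a mouse induced pluripotent stem cell (iPSC) line, iPSC34.3, labelled male, with 3 Tet1 knockout clones (14, 30 and 33, replicates 1 to 3, here KO1, KO2 and KO3) and 3 non-targeted clones (49, 51 and 52, replicates 1 to 3, here NT1, NT2 and NT3). Both groups carry a strain label that joins B6- Tet1tm1Kohx with B6;CBA-Tg(Pou5f1-EGFP)2Mnn/J and the genotype wt/wt;GFP/wt, that is 1 copy of a green fluorescent reporter driven by the Pou5f1 promoter. The knockout clones have in addition Tet1 Cas9 mut/mut. The line had 14 passages in KSR medium before it received Cas9 ribonucleoprotein, a Tet1 guide and a donor oligonucleotide, with 12 h of an enhancer of homology-directed repair. After picking, colonies had 4 more passages and grew on feeder cells (MEFs), from which the iPSCs were then removed. The labels give that treatment in the same words for the NT clones and do not say whether those met the guide. Each library is 1 clone of 1 parental line, and a p-value therefore reflects how far clones of that line differ from each other.

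Tet1, which oxidises 5-methylcytosine in DNA, had 365, 231 and 288 CPM (counts scaled to a common library size with TMM factors) in KO1 to KO3 and 1158, 966 and 1034 CPM in NT1 to NT3, lower in each KO clone but with reads still present. Total counts ranged from 11937909 to 16189554 per library, so that 1 read was worth 0.0624 to 0.0827 CPM. On the first principal component, KO1 lay at -12.4, beside NT2 at -12.2, while KO2 and KO3 lay at 35.4 and 58.7. Markers of pluripotent cells were present in all 6 libraries, with Pou5f1 at 675 to 692 CPM in KO1 to KO3 and 744 to 849 CPM in the NT clones. Only Sox2, of the 16 markers listed, was at 0. Fibroblast markers, listed because of the feeders, were also present in all 6 libraries and higher in the knockout. The summed level of the 27 markers was 720, 775 and 1449 CPM in KO1 to KO3 and 575 to 680 CPM in the NT clones, and none was at 0 in all libraries. Of 24 tested fibroblast markers, 12 rose and 0 fell in DESeq2, where 5.50% of all genes rose and 3.15% fell. In bulk samples, fewer cells of a type and less RNA per cell cannot be told apart.

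The promoters of Itgav, Itgb5 and Itgb1 are shown because in these 3 integrin chains the KO clones all lay above the NT clones, and because Tet1 acts on methylated CpG. The counts hold no measure of DNA methylation, and a link between these CpG and the differences was not tested. Each sequence is the 250 bases before the RefSeq start (GRCm38.p6, + strand, 5′ to 3′), with every CpG in capitals. Itgav is shown from chr2:83724147-83724396 and holds 18 CpG in 250 bases. Itgb5 is shown from chr16:33829415-33829664 and also holds 18 CpG. Itgb1 is shown from chr8:128685404-128685653 and holds 21 CpG.
Itgav: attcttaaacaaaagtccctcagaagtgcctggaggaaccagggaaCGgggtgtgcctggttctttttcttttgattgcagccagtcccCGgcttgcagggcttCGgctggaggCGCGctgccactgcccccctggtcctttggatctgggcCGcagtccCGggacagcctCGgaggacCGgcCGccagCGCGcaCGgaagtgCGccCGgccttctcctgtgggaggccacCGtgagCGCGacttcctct
Itgb5: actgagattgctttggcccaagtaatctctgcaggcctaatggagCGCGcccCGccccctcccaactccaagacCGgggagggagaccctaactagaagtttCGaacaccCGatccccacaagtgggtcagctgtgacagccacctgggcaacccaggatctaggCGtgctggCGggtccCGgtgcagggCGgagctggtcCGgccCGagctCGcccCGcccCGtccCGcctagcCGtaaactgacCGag
Itgb1: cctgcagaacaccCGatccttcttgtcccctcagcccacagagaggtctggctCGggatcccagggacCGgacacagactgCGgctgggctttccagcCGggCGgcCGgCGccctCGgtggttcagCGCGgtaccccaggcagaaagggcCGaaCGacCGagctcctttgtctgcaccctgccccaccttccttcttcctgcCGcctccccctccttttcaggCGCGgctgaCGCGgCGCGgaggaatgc

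Over the longer window of 300 bases (250 before and 50 after the start), 16 of the 32 genes had a RefSeq promoter whose start lay within 150 bases of the deposited gene start. Their median was 18 CpG, with a range of 5 to 38, beside a median of 7 CpG over all 32851 promoters of that length. Of the 16, 8 (50%) held 20 or more CpG, against 26.5% of all promoters. The full set was not limited by reads or by distance to a gene start, as the 16 were. The comparisons with it, here and for CACCTG below, are thus between unlike sets. Itgav, Itgb1 and Itgb5 had 24, 27 and 20 CpG in this window, but so did genes whose groups overlapped, such as Cdh24 with 30 and Itga3 with 24. The letters CACCTG on either strand, the E-box bound by Snail and Zeb repressors, were found in 3 of the 16 (18.75%), Itgb5, Itga3 and Itga11, against 20.2% of all promoters. A match of these letters is a description of the sequence and no record of binding.

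In the comparison of knockout and non-targeted clones, 4 genes were higher in the knockout by DESeq2, the tool named in the submitters' processing notes. They were Itgav and Itgb5, which together form a vitronectin receptor (1.79- and 2.01-fold), and the type II cadherins Cdh11 and Cdh6 (2.64- and 4.52-fold). These folds are edgeR's estimates. E-cadherin, which holds iPSC colonies together, and the fibronectin receptor chain Itga5 passed no test. The calls rested on the tool: edgeR's quasi-likelihood test called 0 of the 28 integrins and cadherins that passed the filter on low counts, at an adjusted p of 0.05. Across all genes it also called 0% of those tested. At an unadjusted p under 0.05 there were 8 of 28, 7 of them higher in the knockout, where 24.8% of all tested genes lay under that p. Limma voom called 0. DESeq2 called 4 of the 30 with an adjusted p, and all 4 rose in the knockout. Over all genes DESeq2 called 8.65% in either direction, 5.50% higher and 3.15% lower. The edgeR adjusted p of the 28 ran from 0.106 to 0.925.

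The log2 fold change (knockout minus non-targeted, from edgeR) was above 0 for 20 of the 28 and below 0 for 8. Its median was 0.42 over 16 tested integrins and 0.60 over 12 tested cadherins, beside 0.00 over all 14664 tested genes. In 5 genes, Itgav, Itgb5, Itgb1, Cdh11 and Cdh13, all KO clones lay above all NT clones, and in 1, Cdh18, all lay below. Among all tested genes 14.8% were separated upward and 14.7% downward, 29.5% in all, so the members' 6 of 28 is no larger share than the background.

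The clones differed within the knockout group. On the log2(CPM + 0.5) scale relative to the non-targeted mean, the median over integrins was 0.05, 0.33 and 0.73 in KO1, KO2 and KO3, and -0.02, 0.09 and 0.08 in NT1 to NT3. The median over cadherins was 0.08, 0.54 and 0.68 in KO1 to KO3 and -0.16, 0.09 and -0.04 in NT1 to NT3. KO1 thus lay within the non-targeted range for both families. Without KO1, edgeR called 19 of 30 tested members (15 higher, among them Itgav, Itgb5, Itgb1, Cdh11, Cdh6, Cdh2 and Cdh13, and 4 lower) where it called 29.1% of all genes, and DESeq2 called 17 (13 higher and 4 lower) where it called 27.4%. Without KO3, which had the highest fibroblast marker sum, the integrin median was 0.074 and DESeq2 called Itgav alone, where it called 1.96% of all genes.

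**Figure D1:**
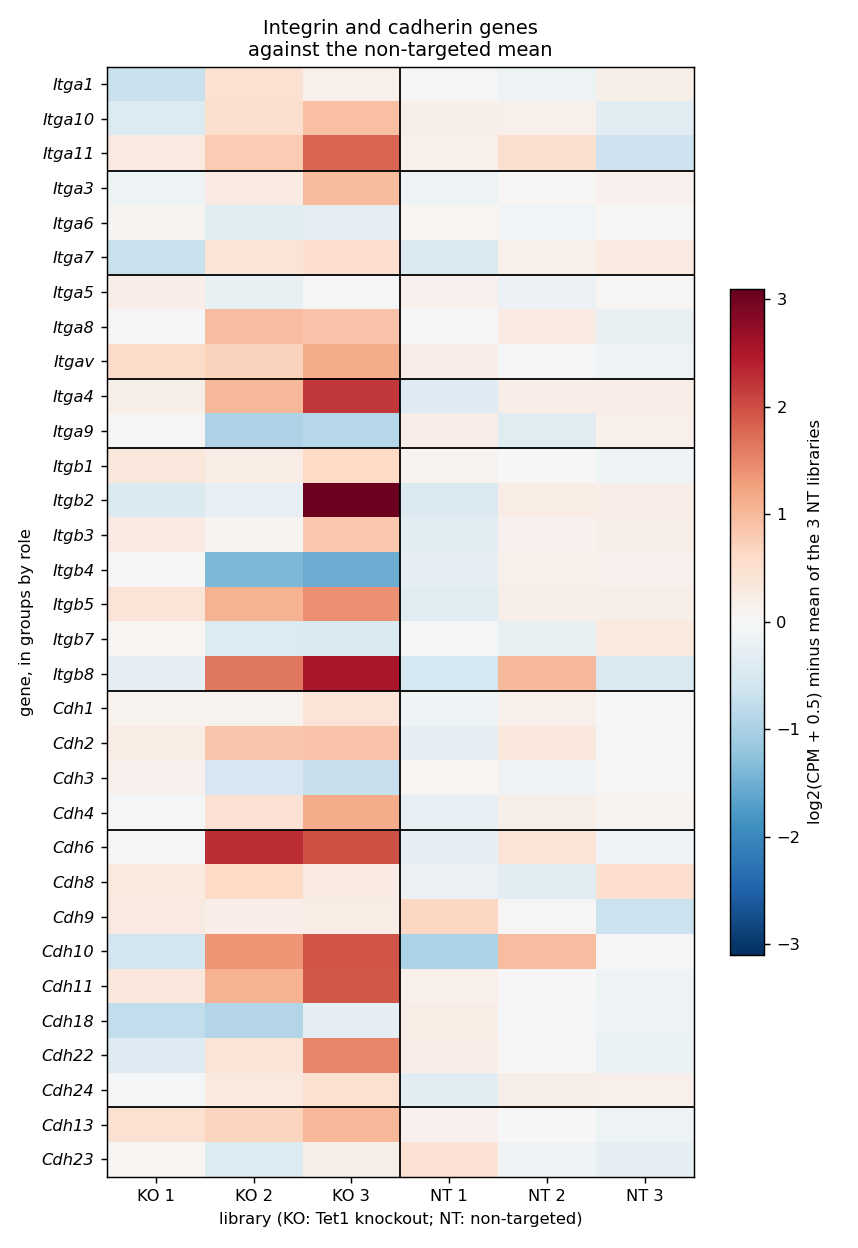
Each cell gives log2(CPM + 0.5) of a gene (vertical axis, 32 genes in groups by role) in a library (horizontal axis, 3 knockout and 3 non-targeted clones) minus the mean of the non-targeted libraries. Most cells of KO1 are pale, and the strongest colours stand in KO2 and KO3, with Itgb2 in KO3 the highest at 3.03.

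**Figure D2:**
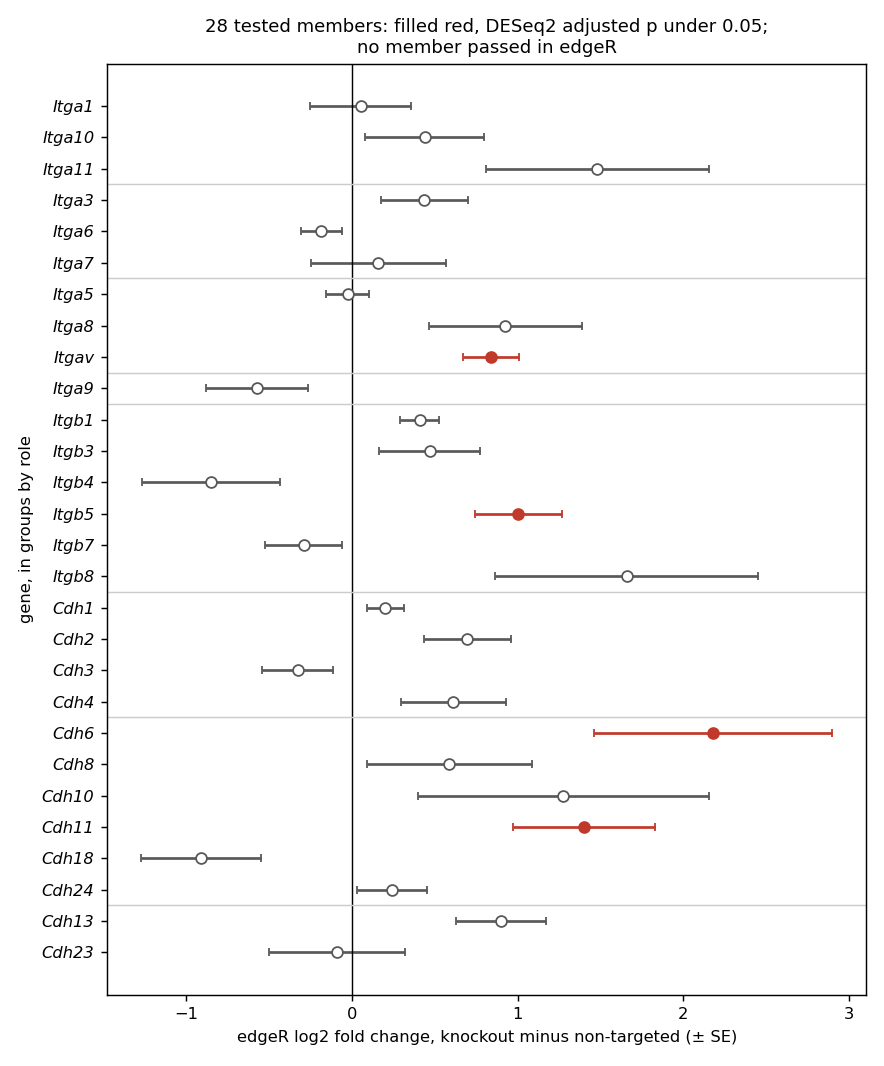
Points give edgeR's log2 fold change of the 28 tested genes (horizontal axis, knockout minus non-targeted) and bars its SE, with genes grouped by role on the vertical axis. Filled red points mark Itgav, Itgb5, Cdh11 and Cdh6, which passed in DESeq2, and no gene passed in edgeR.

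Among the integrin alpha chains, those that recognise the RGD tripeptide in fibronectin and vitronectin were Itga5, Itga8 and Itgav. Itgav (chromosome 2, 83724397 to 83806916, GRCm38), the alpha chain of the vitronectin receptors, had 46.3, 50.1 and 67.7 CPM in KO1 to KO3 and 34.9, 29.8 and 27.1 CPM in NT1 to NT3. Every KO clone was above every NT clone, and KO3 was the highest. The means were 54.7 ± 11.4 and 30.6 ± 3.99 CPM (SD, n = 3), a log2 fold change of 0.84 ± 0.17 (SE), which passed in DESeq2 (adjusted p = 0.00195) and not in edgeR (adjusted p = 0.106). DESeq2 called Itgav also when any single library other than NT3 was left out. Without the filter on low counts it passed in edgeR too (adjusted p = 0.0466), where 0.621% of all genes passed.

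Itga5, the fibronectin receptor chain that pairs with beta 1, had 147, 110 and 123 CPM in KO1 to KO3 and 142, 114 and 132 CPM in NT1 to NT3. The groups overlapped fully, with a log2 fold change of -0.02 ± 0.13 (SE) whose sign depended on single libraries (0.073 without KO2). Itga8, a chain that binds nephronectin, was rare, with 0.690, 1.90 and 1.80 CPM against 0.556 to 0.998 CPM in the NT clones. Its groups overlapped, at 0.93 ± 0.46 (SE).

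Of the laminin-binding alpha chains, Itga6, which pairs with beta 1 or beta 4, had 292, 214 and 225 CPM in KO1 to KO3 and 287, 262 and 281 CPM in NT1 to NT3. KO2 and KO3 were below all NT clones and KO1 was above them (log2 fold change -0.18 ± 0.12 SE). It was -0.34 without KO1, where it passed in edgeR (adjusted p = 0.0121), and -0.090 without KO2. Itga3, another laminin receptor chain, had 138, 185 and 307 CPM against 138, 159 and 169 CPM. KO3 alone stood far from the rest, and the log2 fold change went from 0.44 ± 0.26 (SE) to 0.061 without it, and was 0.66 without KO1 (edgeR adjusted p = 0.0282). Itga7, the laminin receptor chain known from muscle, was at 1.76 to 4.75 CPM and overlapped between groups.

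The collagen-binding alpha chains Itga1, Itga10 and Itga11 all had overlapping groups, with log2 fold changes of 0.06, 0.44 and 1.48. Itga11, a collagen receptor known from mesenchymal cells, had 0.843, 1.41 and 3.38 CPM in KO1 to KO3 and 0.726, 1.06 and 0.209 CPM in NT1 to NT3, so that it was low everywhere and highest in KO3. Of the Itga10 exon bases, 35.5% overlap another gene on the same strand, where reads were not counted, so its level is uncertain. Itga9, a chain that binds tenascin and VCAM1, had 18.1, 8.85 and 9.35 CPM against 20.7, 13.5 and 19.8 CPM. KO2 and KO3 lay below the NT clones and KO1 among them (-0.57 ± 0.31 SE). Its relative Itga4 did not pass the filter, with 0.613, 1.49 and 3.95 CPM in KO1 to KO3 and 0.242 to 0.626 CPM in NT1 to NT3.

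Among the beta chains, Itgb5 (chromosome 16, 33829665 to 33949153), which pairs with alpha v, had 47.8, 75.7 and 96.2 CPM in KO1 to KO3 and 27.8, 40.9 and 40.7 CPM in NT1 to NT3. The groups did not overlap, but KO1 was close to the NT clones. The means were 73.2 ± 24.3 and 36.4 ± 7.53 CPM (SD, n = 3), a 2.01-fold difference (log2 fold change 1.01 ± 0.26 SE), with DESeq2 adjusted p = 0.00805 and edgeR adjusted p = 0.120. In DESeq2 Itgb5 passed when KO1 or NT2 was left out, and did not when KO2 or KO3 or NT1 or NT3 was.

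Itgb1 (chromosome 8, 128685654 to 128733200), the chain shared by the largest number of integrins, had 312, 286 and 377 CPM in KO1 to KO3 and 263, 248 and 224 CPM in NT1 to NT3. All KO clones were higher, by a small margin, at a log2 fold change of 0.41 ± 0.12 (SE). It passed neither test (adjusted p = 0.125 in edgeR and 0.0580 in DESeq2). Itgb3, the other vitronectin receptor beta chain known from platelets and osteoclasts, had 3.45, 3.06 and 5.46 CPM against 2.18, 3.18 and 3.27 CPM, with overlapping groups (0.47 ± 0.31 SE, but 0.17 without KO3 and 0.31 without NT1).

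Itgb8, which joins alpha v in a receptor that activates latent TGF-beta, varied widely between clones, with 1.61, 7.61 and 14.6 CPM in KO1 to KO3 and 1.29, 4.74 and 1.39 CPM in NT1 to NT3. NT2 was above KO1 (log2 fold change 1.66 ± 0.79 SE). The 4 measured beta chains that can pair with alpha v (Itgb1, Itgb3, Itgb5 and Itgb8) all had log2 fold changes above 0, a grouping made after their values were seen. Of the remaining beta chain with that partner, Itgb6, there were 11 reads in all.

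Itgb4, the beta chain of hemidesmosomes, had 18.3, 6.70 and 6.04 CPM in KO1 to KO3 and 15, 20.7 and 20.1 CPM in NT1 to NT3. KO2 and KO3 were below all others and KO1 was within the non-targeted range (log2 fold change -0.85 ± 0.42 SE; edgeR adjusted p = 0.248). Itgb7, a leukocyte integrin chain, had 7.62 to 11.3 CPM in KO1 to KO3 and 9.11 to 13.5 CPM in the NT clones. Itgb2, the chain of the leukocyte integrins, did not pass the filter and had 0.0767, 0.165 and 5.97 CPM in KO1 to KO3 against 0.0807 to 0.437 CPM. It was thus seen almost only in KO3, and in that library the blood cell markers Csf1r and Ptprc were high as well. Csf1r had 0.613, 0.496 and 8.92 CPM in KO1 to KO3 and at most 0.726 CPM in the NT clones, and Ptprc 0.307, 0 and 3.74 CPM and at most 0.139 CPM. Laptm5, on the same list, went the other way, with all KO clones below all NT clones (log2 fold change -0.58). The summed level of the 10 blood markers was 76.4, 60.0 and 189 CPM in KO1 to KO3 and 78.7 to 97.9 CPM in NT1 to NT3, with Hbb-bs at 0 in all libraries. The part of such cells in the Itgb2 value was not tested.

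**Figure D3:**
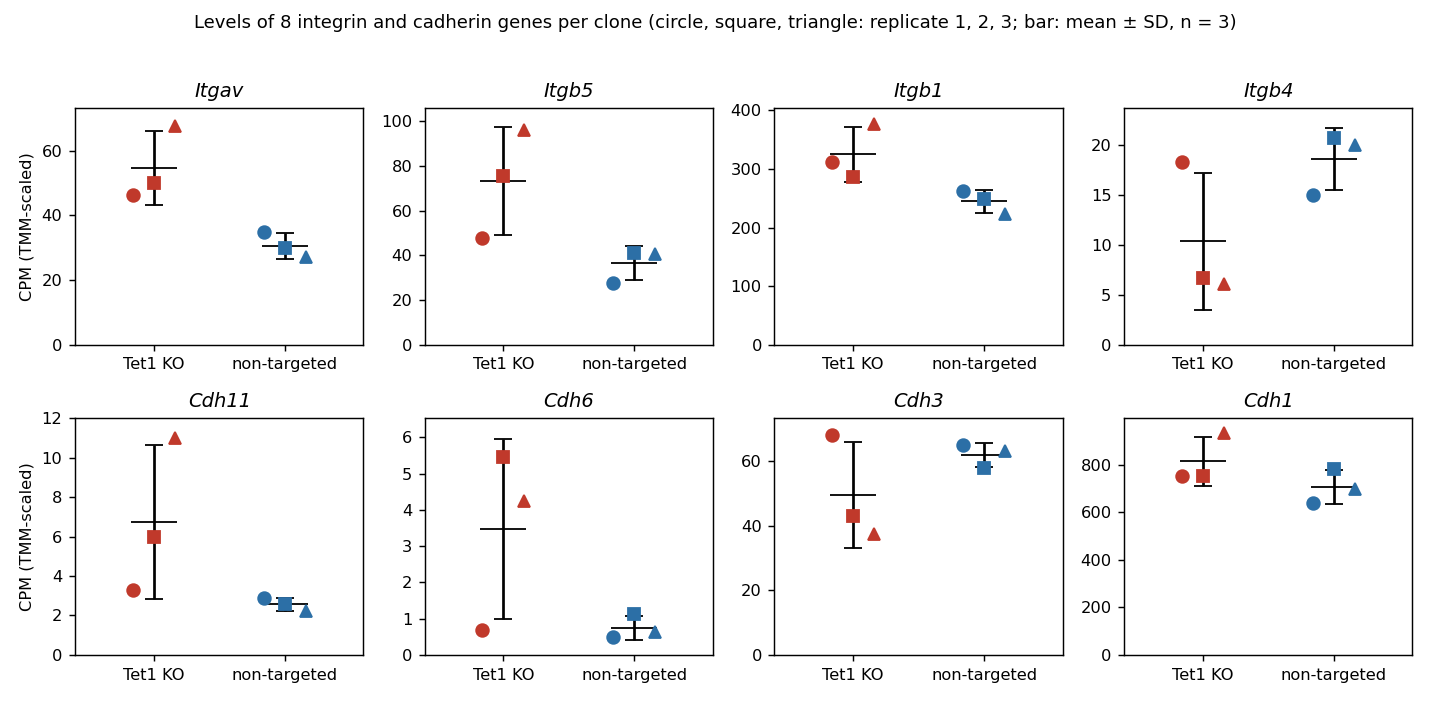
The vertical axes give CPM of 8 genes, each on its own scale from 0, for the 3 knockout clones (red) and the 3 non-targeted clones (blue), with the symbol showing the replicate and bars the mean ± SD. Itgav, Itgb5, Itgb1 and Cdh11 are separated between groups, while for Itgb4, Cdh6 and Cdh3 KO1 sits at the level of the NT clones.

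Of the type I classical cadherins, Cdh1 (chromosome 8, 106603351 to 106670246), E-cadherin, had 755, 755 and 934 CPM in KO1 to KO3 and 639, 783 and 699 CPM in NT1 to NT3. NT2 lay above KO1 and KO2, and the log2 fold change of 0.20 ± 0.11 (SE) passed neither test and was 0.094 without KO3 and 0.13 without NT1. Cdh2, N-cadherin, had 7.82, 12.2 and 12.6 CPM against 5.25, 8.55 and 6.26 CPM. Here too NT2 was above KO1 (0.70 ± 0.26 SE; adjusted p = 0.167 in edgeR and 0.113 in DESeq2). The log2 ratio of Cdh1 to Cdh2, each with 0.5 CPM added, was 6.50, 5.89 and 6.16 in KO1 to KO3 and 6.8, 6.44 and 6.69 in NT1 to NT3. The difference of the group means was -0.46, and KO1 was above NT2.

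Cdh3, P-cadherin, had 68.1, 42.9 and 37.3 CPM in KO1 to KO3 and 65.0, 57.8 and 63.2 CPM in NT1 to NT3. KO1 was the highest of all libraries and KO2 and KO3 the lowest, so that the mean difference was small beside the spread (log2 fold change -0.33 ± 0.21 SE). Without KO1 it was -0.63 (edgeR adjusted p = 0.00459) and without KO3 -0.16. Cdh3 and Cdh1 lie side by side on chromosome 8 and ranked the clones differently: the ratio of Cdh1 to Cdh3 CPM was 11.1, 17.6 and 25.0 in KO1 to KO3 and 9.83, 13.6 and 11.1 in NT1 to NT3. Cdh4, R-cadherin, had 9.35, 13.7 and 22.6 CPM against 8.15 to 11.2 CPM, with overlap only of KO1.

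The type II cadherins held both cadherins that passed in DESeq2. Cdh11 (chromosome 8, 102632095 to 102785642), known from mesenchymal cells and osteoblasts, had 3.30, 5.96 and 11 CPM in KO1 to KO3 and 2.91, 2.56 and 2.22 CPM in NT1 to NT3. The groups were separate, though KO1 exceeded the highest non-targeted clone by less than 1 CPM. The means were 6.75 ± 3.91 and 2.56 ± 0.341 CPM (SD, n = 3; log2 fold change 1.40 ± 0.43 SE; adjusted p = 0.0330 in DESeq2 and 0.131 in edgeR). Without KO3 the log2 fold change was 0.85, and without any single library other than KO1 Cdh11 was not called in DESeq2.

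Cdh6 (chromosome 15, 13034200 to 13173639), K-cadherin, had 0.690, 5.46 and 4.24 CPM in KO1 to KO3 and 0.484, 1.12 and 0.626 CPM in NT1 to NT3, from 9, 66 and 59 reads against 6, 18 and 9. KO2 and KO3 were above every other library, but KO1 was below NT2. The log2 fold change was 2.18 ± 0.72 (SE; adjusted p = 0.0367 in DESeq2 and 0.143 in edgeR), and among the fits that left out 1 library DESeq2 called it only without KO1. Cdh10, a cadherin of the nervous system, had the same low and high clones, with 0.460, 3.23 and 5.11 CPM against 0.242, 2.31 and 0.973 CPM, and did not pass (1.28 ± 0.88 SE).

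Cdh18, a neural cadherin, was the 1 gene for which the KO clones all lay lower, with 0.690, 0.579 and 1.15 CPM against 1.86, 1.43 and 1.32 CPM. The log2 fold change was -0.91 ± 0.36 (SE; adjusted p = 0.181 in edgeR and 0.285 in DESeq2). It rested on 7 to 23 reads per library, over a gene 203 times as long as its exons, and intronic reads were counted. Cdh8 and Cdh24 overlapped between groups, at 0.59 ± 0.50 and 0.24 ± 0.21 (SE), and 10.9% of the Cdh8 exon bases overlap other genes on the same strand. Cdh22 and Cdh9 did not pass the filter: Cdh22 had 0.307, 0.910 and 2.52 CPM in KO1 to KO3 against 0.417 to 0.726 CPM, and Cdh9 was at or under 0.726 CPM in every library.

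Of the other cadherins, Cdh13, T-cadherin, which is held to the membrane by a lipid anchor, had 2.68, 3.14 and 4.17 CPM in KO1 to KO3 and 2.02, 1.81 and 1.53 CPM in NT1 to NT3. All KO clones were higher, KO1 included (log2 fold change 0.90 ± 0.27 SE), and it passed neither edgeR (adjusted p = 0.128) nor DESeq2 (adjusted p = 0.111). Cdh23, known from the tip links of hair cells, overlapped at 0.745 to 1.37 CPM against 0.834 to 1.78 CPM. Among the 11 genes with fewer than 30 reads in all, Cdh12, Cdh7, Cdh20, Cdh17, Itga2, Cdh26, Itgb6, Cdh5 and Cdh19 had totals of 22, 19, 17, 14, 14, 12, 11, 9 and 7, and Cdh15 and Cdh16 had 0. Cdh9, with 31 reads, was the member nearest to the threshold. Cdh5, the cadherin of endothelial cells, had 1, 0 and 4 reads in KO1 to KO3 and 2, 0 and 2 in NT1 to NT3.

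Levels of different genes were compared as CPM per kilobase of exon, with the limit that intronic reads were counted and raise genes with long introns. In the NT clones Cdh1 was the highest, at 155 ± 15.8 (SD, n = 3), followed by Itgb1 at 60.0 ± 4.83. Itga6 (30.7 ± 1.47), Itga3 (27.2 ± 2.74) and Itga5 (26.2 ± 2.89) came next, and the SD range of Itga3 overlapped those of both neighbours. Cdh3 stood at 14.1 ± 0.861 and Itgb5 at 10.3 ± 2.12, and all others were at or below 3.96. Itgav ranked 10 of 32 at 2.85 ± 0.371 in the NT clones and 8 of 32 at 5.09 ± 1.06 in the KO clones, and the 7 highest genes were the same in both groups, in a partly different order. The genes that passed in DESeq2 thus included Itgb5 and Itgav from the upper part of the order and Cdh11 (0.288 ± 0.0382) and Cdh6 (0.0825 ± 0.0372) from the lower part.

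**Figure D4:**
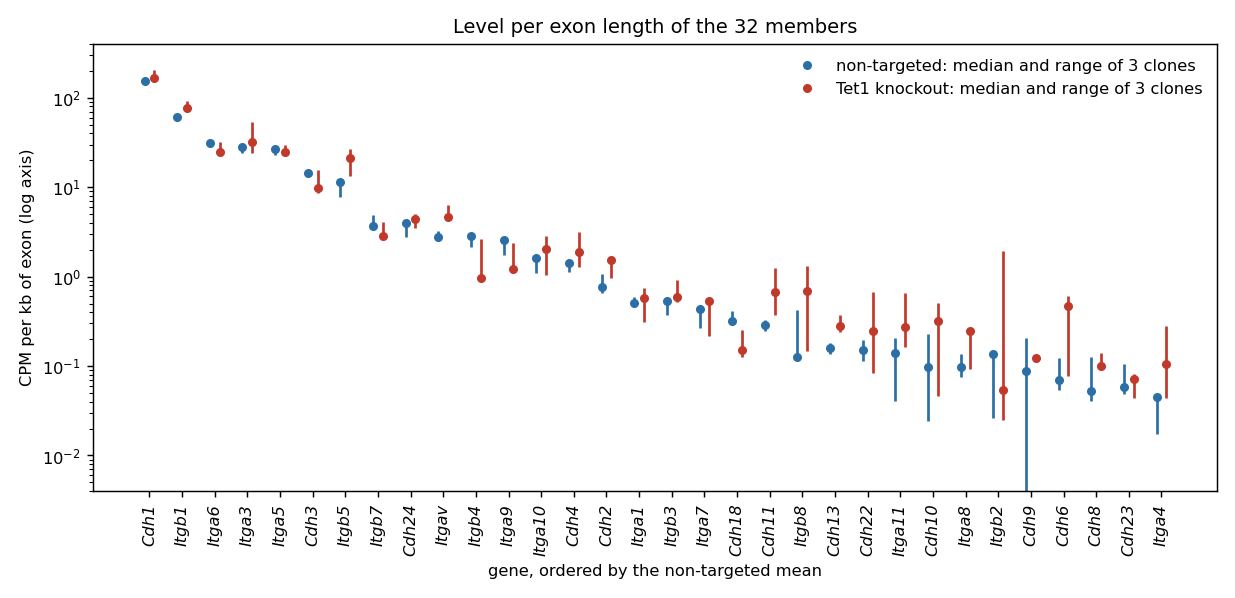
The vertical axis (log scale) gives CPM per kilobase of exon for the 32 genes, ordered by the non-targeted mean, with the median (point) and the range (line) of 3 non-targeted (blue) and 3 knockout (red) clones. Cdh1 and Itgb1 lead in both groups, the knockout ranges are wide among the rare genes, and the line of Cdh9 that reaches the lower edge includes 1 library at 0.

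The summed CPM of the integrin beta members was 395, 387 and 513 in KO1 to KO3 and 319, 327 and 303 in NT1 to NT3, higher in each KO clone. Itgb1 made up most of each sum, at 312, 286 and 377 CPM in KO1 to KO3 and 263, 248 and 224 CPM in NT1 to NT3. Of the 6 tested beta chains, 4 had log2 fold changes above 0 and 2 below. The alpha chains, at 657, 602 and 771 CPM against 644, 601 and 651 CPM, overlapped. Cadherins other than Cdh1 summed to 108, 106 and 121 CPM in KO1 to KO3 and 99.3 to 103 CPM in the NT clones. To see whether members moved with their surroundings, the median deviation of the 20 nearest genes above 4 on the log2 CPM scale was taken. For the 4 genes called in DESeq2 it lay between -0.10 and 0.13 in the knockout libraries, and the largest for any member in any library was 0.36 in size, near Itga7. Around Itgb1, a gene with separate groups, the neighbours stood at 0.084, 0.18 and 0.20 in KO1 to KO3 and at 0.0010 to 0.058 in the NT clones, in the direction of the Itgb1 difference. Their part in it was not tested.

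Genes that work with these receptors were taken from lists. Over all genes, DESeq2 called 5.50% higher and 3.15% lower, and 24.8% lay under an unadjusted edgeR p of 0.05. Among the integrin ligands of the extracellular matrix, 5 of 23 tested rose and 0 fell in DESeq2, and 0 passed in edgeR (14 at an unadjusted p under 0.05, 13 of them higher). Their median log2 fold change was 0.61, beside 0.00 over all genes. Col4a2, a basement membrane collagen chain, had 48.9, 49.6 and 84.3 CPM in KO1 to KO3 and 21.6 to 25.0 CPM in the NT clones (log2 fold change 1.38 ± 0.22 SE; adjusted p = 5.85e-06 in DESeq2 and 0.106 in edgeR). Its partner chain Col4a1 (0.95 ± 0.21 SE; adjusted p = 0.00199 in DESeq2 and 0.109 in edgeR) and the laminin chain Lamb2 (0.85 ± 0.16 SE; adjusted p = 0.00133 in DESeq2 and 0.106 in edgeR) also rose in DESeq2. The remaining calls were Fbn1 and Vcam1, and Fbn1 is on the fibroblast list too.

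Among the adaptors and activators that act with integrins, 2 of 26 tested rose and 2 fell in DESeq2, where 8.65% of all genes were called in either direction. In edgeR 0 passed and 7 lay under an unadjusted p of 0.05, where 24.8% of all genes did. Over the list the median log2 fold change was -0.01. Kank1, a focal adhesion protein that binds talin, had 37.8, 41.2 and 43.0 CPM against 21.9 to 28.4 CPM (log2 fold change 0.63 ± 0.13 SE; adjusted p = 0.00496 in DESeq2 and 0.106 in edgeR). Parva rose (1.32 ± 0.37 SE; DESeq2 adjusted p = 0.0102) and its paralogue Parvb fell (-0.87 ± 0.29 SE; DESeq2 adjusted p = 0.0342), both parvins that join integrin-linked kinase to actin (edgeR adjusted p = 0.124 and 0.144). The kinase Ptk2b fell, with 40.7, 10.8 and 29.1 CPM against 52.3 to 73.6 CPM (adjusted p = 0.0305 in DESeq2 and 0.150 in edgeR).

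Among catenins and junction partners 0 of 16 tested rose and 3 fell in DESeq2, where 3.15% of all genes fell. In edgeR 0 passed and 7 lay under an unadjusted p of 0.05, where 24.8% of all genes did. Over the list the median log2 fold change was -0.05. Jup, plakoglobin, which binds the tails of classical and desmosomal cadherins, had 199, 200 and 201 CPM in KO1 to KO3 and 259, 270 and 303 CPM in NT1 to NT3. The groups were well apart and the knockout clones nearly equal (log2 fold change -0.47 ± 0.08 SE; adjusted p = 0.0010 in DESeq2 and 0.106 in edgeR). Ctnnal1, an alpha-catenin-like protein, had 158, 155 and 118 CPM against 223 to 231 CPM (-0.65 ± 0.12 SE; adjusted p = 0.000553 in DESeq2 and 0.106 in edgeR). Arvcf, a relative of p120 catenin, had 56.0, 38.1 and 32 CPM against 70.6 to 92.4 CPM (-0.93 ± 0.21 SE; adjusted p = 0.00254 in DESeq2 and 0.109 in edgeR). In all 3, KO1 lay below every NT clone.

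Of 6 tested desmosome genes, 2 rose in DESeq2, the desmosomal cadherins Dsc2 (log2 fold change 1.67 ± 0.41 SE; adjusted p = 0.00390 in DESeq2 and 0.113 in edgeR) and Dsg2 (0.59 ± 0.13 SE; adjusted p = 0.00731 in DESeq2 and 0.109 in edgeR), and 0 fell. For this list and the next ones, the shares over all genes were 5.50% higher and 3.15% lower in DESeq2. Of 8 tested protocadherins that lie outside the gene clusters, 7 were above 0 and 1 rose in DESeq2, Pcdh19 (1.09 ± 0.34 SE; adjusted p = 0.0397 in DESeq2 and 0.134 in edgeR). Of 7 tested repressors that bind the E-boxes of Cdh1, Zeb2 alone was called, and it rose in DESeq2 with 3.68, 11.6 and 11.4 CPM against 1.53, 3.37 and 1.32 CPM (2.08 ± 0.53 SE; adjusted p = 0.00337 in DESeq2 and 0.116 in edgeR). Cdh1 was called in neither direction. Of 12 epithelial markers 1 rose in DESeq2, the tight junction protein Ocln (1.08 ± 0.24 SE; adjusted p = 0.00349 in DESeq2 and 0.109 in edgeR). None of the 4 tested relatives with other names, such as Itgal and Itgae, was called, and the smallest DESeq2 adjusted p was that of Itgal, at 0.412.

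By their medians, markers of fibroblasts, primitive endoderm and primed epiblast were higher in the KO clones in which Itgav, Itgb5 and Cdh11 were highest. So were neural markers, epithelial markers and the protocadherins outside the gene clusters. The order was not the same throughout, and endothelial markers did not follow it. The median deviation of the fibroblast list from the non-targeted mean was 0.63, 0.78 and 1.86 in KO1 to KO3 and -0.37, 0.25 and 0.14 in NT1 to NT3, highest in KO3 as for Itgav, Itgb5 and Cdh11. On the same scale Cdh6 stood at -0.03, 2.29 and 1.96 in KO1 to KO3, near 0 in KO1 and highest in KO2. Among the NT clones Itgav and Cdh11 were highest in NT1 (0.20 and 0.16), where the fibroblast median was lowest. Itgb5 and Cdh6 were lowest in NT1 (-0.36 and -0.31), as the fibroblast median was. The 3 calls with the smallest p were Col6a2 (log2 fold change 1.28 ± 0.28 SE; DESeq2 adjusted p = 0.00215), Col5a1 (1.20 ± 0.30 SE; DESeq2 adjusted p = 0.00316) and Col6a3 (1.15 ± 0.29 SE; DESeq2 adjusted p = 0.00495), all matrix collagens, with edgeR adjusted p of 0.109, 0.113 and 0.113. Primitive endoderm markers had medians of 0.56, 0.62 and 1.16 in KO1 to KO3 and at most 0.09 in the NT clones, with 1 of the 16 listed at 0 in all libraries and summed levels of 549, 450 and 656 CPM against 461 to 535 CPM. In DESeq2 5 of 11 tested rose, among them Col4a2, Col4a1 and Cubn (1.68 ± 0.47 SE; adjusted p = 0.00946 in DESeq2 and 0.123 in edgeR). Over all genes DESeq2 called 5.50% higher and 3.15% lower. Of the 11, 8 had log2 fold changes above 0 and 3 below, with Lama1 the lowest (-0.70 ± 0.34 SE). Col4a1, Col4a2 and Lama1 are on the list of integrin ligands too. Markers of the primed epiblast and streak had medians of 0.08, 1.45 and 1.92 in KO1 to KO3 and -0.29, 0.68 and -0.29 in NT1 to NT3, with 2 of 8 called, Eomes and Sox3, both higher. In these medians too NT2 lay above KO1, as for Cdh6 and Itgb8. Their summed level was 65.6, 219 and 279 CPM in KO1 to KO3 and 56.1 to 110 CPM in the NT clones. The pluripotent list had medians of -0.12, -0.34 and -0.71 in KO1 to KO3 and -0.11 to 0.11 in the NT clones, with 0 of 15 called in DESeq2 (2 at an unadjusted p under 0.05 in edgeR), and 14 of the 15 were below 0. The part of these cell types in the integrin and cadherin values was not tested.

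Of the other lists, 1 of 6 tested neural markers rose in DESeq2 (Msi1) and 1 fell (Pax6), and 0 of 7 tested endothelial markers were called in DESeq2 (3 at an unadjusted p under 0.05 in edgeR), with Tie1 (DESeq2 adjusted p = 0.0626) and Tek (0.0817) nearest. Over all tested genes 24.8% lay under an unadjusted edgeR p of 0.05. The neural medians were 0.19, 0.80 and 0.90 in KO1 to KO3 and -0.15, 0.25 and -0.14 in NT1 to NT3. The summed neural level was 128, 315 and 402 CPM against 84.2 to 148 CPM. In KO1 to KO3 the epithelial medians were -0.01, 0.32 and 0.56, and those of the protocadherins 0.26, 1.15 and 1.36. In these neural, epithelial and protocadherin medians NT2 lay above KO1, at 0.25, 0.29 and 0.51. The endothelial medians were -0.05, 0.36 and 0.03 in KO1 to KO3 and -0.11 to 0.12 in the NT clones. The summed endothelial level was 82.2, 76.2 and 53.2 CPM against 77.0 to 93.5 CPM. Of the 10 blood markers, Csf1r, which did not pass edgeR's filter, rose (DESeq2 adjusted p = 0.0435) and Laptm5 fell in DESeq2 (-0.58 ± 0.15 SE; adjusted p = 0.0191 in DESeq2 and 0.116 in edgeR). Without KO3, the library highest in the fibroblast list, the edgeR log2 fold changes of Itgav, Itgb5, Cdh11 and Cdh6 were 0.66, 0.76, 0.85 and 2.00, against 0.84, 1.01, 1.40 and 2.18 with all libraries. In DESeq2 Itgav was then called and Itgb5, Cdh11 and Cdh6 were not. The fibroblast medians of the remaining KO1 and KO2, at 0.63 and 0.78, were still above those of the NT clones.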

How the data were processed

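Polyadenylated RNA of 6 mouse iPSC clones was sequenced with a stranded kit. The authors deposited raw whole-number counts per gene, not normalized. Named without their roles, per the submitters' processing notes, are DESeq2 1.18.1, featureCounts 1.5.3, HISAT2 2.1.0 and the build mm10. Per the file headers, reads were counted with featureCounts 1.6.2 on GENCODE M15, reverse stranded, over whole gene bodies with introns, and neither multi-mapping reads nor reads shared by overlapping genes were kept. Sox2, which lies within Sox2ot, is therefore at 0, and paralogues lose shared reads.

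From the counts, edgeR 4.0.16 (R 4.3.3) kept 14664 of 25600 genes with any count (filterByExpr, minimum count 10 and total 15), scaled them with TMM, and tested group with the quasi-likelihood test and Benjamini-Hochberg adjustment over all tested genes at 0.05. Of the 32 members 4 did not pass that filter (Itga4, Itgb2, Cdh22 and Cdh9). DESeq2 1.42.0 and limma 3.58.1 (voom) were alternatives, as were other scalings, no filter, a replicate block and leaving out each library. The scripts were tested on simulated data. Groups came from the labels. Exon lengths came from GENCODE M21, a later release than that of the counts, and promoters from RefSeq (GRCm38.p6), which matched 21 of 32 members. The members and gene lists were chosen with earlier results of these data known. Genes are named by a rule: 12 integrins and cadherins, every member called or with separate groups, and from each list up to 3 called genes, or the 2 with the smallest p where 0 were called. Beyond it, the remaining members and some list genes, such as Parvb, Fbn1, Vcam1, Ptprc and Hbb-bs, were named after their values were seen. The precision of a value is limited by 3 clones per group and by the depth of 11937909 to 16189554 reads per library.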

Additional observations from a re-analysis of the deposited data

How the results depend on the processing

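The edgeR count of 0 called members became 4 with DESeq2 (8.65% of all genes called) and 1 (Itgav) with no filter on low counts (0.621%). It remained 0 with limma voom (0.00682%), and with other scalings and a robust fit (0% each). Leaving out each library gave 0 to 19, with 19 from the loss of knockout replicate 1 (29.1% of all genes). The DESeq2 count of 4 (8.65% of all genes) ran from 0 without non-targeted replicate 3 (0.977%) to 17 without knockout replicate 1 (27.4%). It was 3 without non-targeted replicate 2 (5.45%), and 1 without knockout replicate 2 (2.11%), knockout replicate 3 (1.96%) or non-targeted replicate 1 (1.44%), so calls over all genes went down and up with those of the members. The count of 6 members with separate groups ran from 6 to 24 with a library left out. It was 24 of 30 without knockout replicate 1, where 58.4% of all genes were separate, and 12 of 30 without non-targeted replicate 2, where 42.4% were. With fewer clones groups separate more often by construction, so these counts are not comparable with the 6 of 28 (29.5%). The integrin median of 0.42 ran from 0.074 (without knockout replicate 3) to 0.56, and the cadherin median of 0.60 from 0.39 to 0.86. Of 182 alternative values for 14 named members 165 kept direction and side of the threshold, 15 passed it and 2 changed sign, both of Itga5 (0.073 without knockout replicate 2 and 0.042 without non-targeted replicate 1, in a leave-one-out range of -0.15 to 0.073). The difference in log2 ratio of Cdh1 to Cdh2, -0.46, ran from -0.62 to -0.31. Thresholds of 10 and 100 reads gave 39 and 26 members. Correlations of deviations were 0.49, 0.12 and -0.03 for the same replicate number and ran from -0.49 to 0.48 for different numbers. With 3 clones per group they cannot decide whether the numbers pair the samples. With the replicate block edgeR called 0 (0.0205% of all genes) and DESeq2 4 (9.69%), with Itgb4 lower in place of Cdh11, and the medians were 0.37 and 0.60. Where an alternative moved a count, the cause was not tested. Genes near 1 CPM rest on a few reads per library, so small differences there were not detectable at this depth.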
